A study of Mus musculus with 26 samples.

Results

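Gli1+ mesenchyme of female (XX) and male (XY) mouse embryos was compared at E14.5. The 6 libraries, 3 female and 3 male, are those labelled as sorted Gli1+ mesonephric cells at this age, out of 26 samples in the series. They are described across the autosomal genes, of which 17257 passed the filter on low counts among 39066 autosomal rows in a table of 41442 genes. The embryos carried Gli1-CreER and Rosa-Tomato, and the pregnant dams were injected intraperitoneally with 1 mg of tamoxifen on each of 2 days, E12.5 and then E13.5. The red reporter therefore marks cells that used the Gli1 driver around those days, together with their descendants, whether or not they still expressed Gli1 when sorted. Female and male Gli1+ libraries at E16.5, 3 of each with the same alleles and tamoxifen days, served as the later age. No wild-type, vehicle or unsorted sample was compared, so the reporter, tamoxifen, enzymatic dissociation and sorting are common to both sexes.

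The mesonephros carries the Wolffian duct, the origin of the male tract, beside the Müllerian duct, the origin of the female tract. In males the fetal testis secretes anti-Müllerian hormone (AMH), which acts through its receptor on the mesenchyme around the Müllerian duct and makes that duct regress, and testosterone, which acts through the mesenchyme to keep the Wolffian duct. Without these hormones the Müllerian duct stays and the Wolffian duct is lost. Gli1 is a transcription factor and target gene of hedgehog signalling, which reaches the mesenchyme from neighbouring epithelium.

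The E14.5 libraries held 23382983 to 54189569 counts each, and 3 counts, taken as the limit of detection, corresponded to 0.0554 to 0.128 CPM (counts of a gene relative to library size). Summed Y-linked counts matched the labelled sex in all 6 libraries. Pearson correlations of log2 CPM were 0.991 to 0.994 within a sex and 0.988 to 0.990 between the sexes. The first principal component of the 6 libraries (40.9% of the variance) separated the sexes, and the second (19%) set male replicate 1 apart from the other 5 libraries. Female replicate 3 held globin and other erythroid RNA at 980.1 CPM, against 7.45 to 27.1 CPM in the other 5. By edgeR no erythroid gene of 8 tested was called, 6 had an unadjusted p under 0.05, and DESeq2 called 2. The mesenchyme markers Pdgfra, Pdgfrb, Col1a1, Col3a1, Dcn, Twist1 and 9 others summed to 42976 to 45042 CPM in female and 37289 to 43164 CPM in male libraries, with none at 0. Nothing in the labels says that the replicates came from separate litters or animals, so p-values measure the spread between these libraries.

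Sex differences at E14.5 were many and mostly small. By edgeR's quasi-likelihood test over 12 fetal libraries, 1074 autosomal genes (6.22% of those tested) had an adjusted p under 0.05. Of these, 445 (2.58%) were higher in females and 629 (3.64%) higher in males. The median size was 1.37-fold among female-higher and 1.53-fold among male-higher genes. At least 2-fold were 256 genes (1.48%), 68 female-higher (0.394%) and 188 male-higher (1.09%), and at least 4-fold were 11 and 51. In 1070 of the 1074 genes the female and male libraries did not overlap, as was the case for 27% of all tested genes. The median log2 fold change (female minus male, as throughout) over all tested autosomal genes was -0.01. In the plot of fold change against abundance the called genes extend across the whole range of abundance. RNA was measured from sorted pools, so fewer cells of a type and less RNA per cell cannot be told apart for any gene given here.

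**Figure D1:**
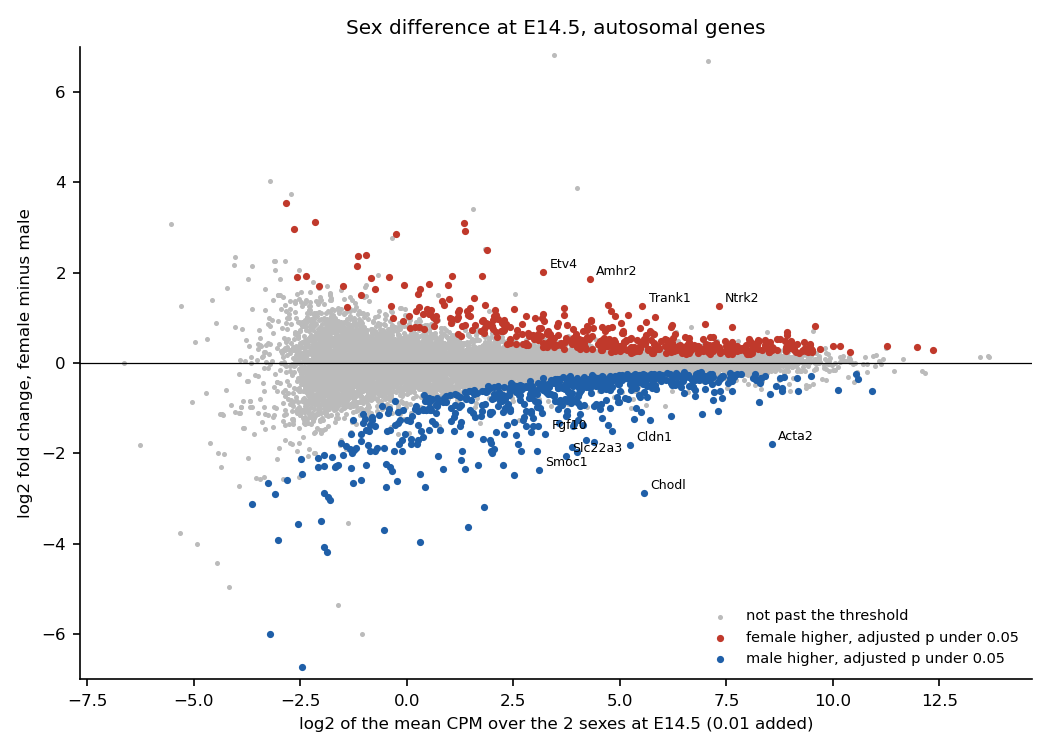
Log2 fold change (female minus male) of each tested autosomal gene at E14.5 against the log2 of its mean CPM over both sexes. Red points are the 445 female-higher and blue points the 629 male-higher genes with an edgeR adjusted p under 0.05, and 10 of the genes described in the text are labelled.

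Single libraries set how many genes passed. The count was 547, 625 or 617 without female replicate 1, 2 or 3, 649 or 522 without male replicate 2 or 3, and 1598 without male replicate 1, the library that stood apart. Called in all 6 of these fits were 430 of the 1074 genes, 164 of them female-higher and 266 male-higher. Of the 32 genes chosen for the size of their difference or of its change with age, 30 were called in every one of these fits, and Sall1 and Akr1c14 were not.

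The genes that were highest in females relative to males included receptors and an ETS transcription factor. The 12 largest in each direction were chosen among called genes without overlap between female and male libraries. Etv4 (chromosome 11, 101769742 to 101785371), a transcription factor induced by fibroblast growth factor signalling through ERK, measured 15.4, 14.1 and 14.8 CPM in the female libraries and 3.45, 4.72 and 2.81 CPM in the male libraries. All 3 female libraries stood well above all 3 male ones, and the fitted difference was 4.04-fold (log2 fold change 2.01, SE 0.173, adjusted p 4.25e-06). Amhr2 (chromosome 15, 102445367 to 102454633), the receptor for AMH, measured 28.6, 32.1 and 31.2 CPM in the female libraries and 9.51, 9.08 and 6.82 CPM in the male libraries, a 3.65-fold difference (log2 1.87, SE 0.196, adjusted p 6.82e-05). Its transcript was thus present in the mesenchyme of both sexes. Ramp3 (chromosome 11, 6658521 to 6677475), a partner protein of calcitonin-family receptors, measured 41.7, 34.7 and 35.2 CPM in the female libraries and 17.0, 13.7 and 15.0 CPM in the male libraries (log2 1.29, SE 0.126, adjusted p 1.69e-05). Trank1 (chromosome 9, 111311739 to 111395775) measured 67.0, 61.0 and 67.8 CPM in the female libraries and 26.7, 22.0 and 32.6 CPM in the male libraries (log2 1.27, SE 0.122, adjusted p 1.81e-05).

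Ntrk2, Gria2, Grik1 and Nefm, also among the 12 largest, are genes best known from nerve cells. Ntrk2, the receptor of the neurotrophin BDNF, measured 247, 209 and 221 CPM in the female libraries and 97.5, 88.8 and 97.0 CPM in the male libraries (log2 1.26, SE 0.0666, adjusted p 9.91e-08). Gria2 and Grik1, subunits of glutamate receptors, stood at 17.4 ± 0.863 against 8.35 ± 0.918 CPM and 40.1 ± 4.58 against 19.49 ± 1.40 CPM (SD, n = 3 libraries each). Nefm, a neurofilament subunit, stood at 12.4 ± 1.64 against 5.90 ± 0.964 CPM. All 4 passed the test, with log2 fold changes of 1.26, 1.07, 1.04 and 1.09. Neural and glial markers (Tubb3, Elavl4, Stmn2, Erbb3, Fabp7 and Th, with 3 others under the filter) summed to 15.7 to 17.9 CPM in female and 16.9 to 18.2 CPM in male libraries. None of the 6 tested was called by edgeR or DESeq2, and 2 had an unadjusted p under 0.05, 1 in each direction. Rxfp2, the receptor of the testis hormone INSL3, measured 38.9, 32.6 and 42.4 CPM in the female libraries and 17.4, 17.2 and 16.7 CPM in the male libraries (log2 1.15, SE 0.148, adjusted p 0.000374). As with Amhr2, the receptor of a testis hormone had more transcript in females. Nfam1, Fam78b and Samd5 complete the 12 largest, with log2 fold changes of 1.23, 1.05 and 1.01.

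Male-higher genes included a membrane lectin, transporters, matrix proteins and growth factors, and 51 of them differed at least 4-fold. Chodl (chromosome 16, 78930948 to 78951733), a membrane lectin, measured 11.9, 8.0 and 14.3 CPM in the female libraries and 90.5, 82.2 and 78.2 CPM in the male libraries, a 7.32-fold difference (log2 fold change -2.87, SE 0.171, adjusted p 1.03e-06). Glis1 (chromosome 4, 107434719 to 107635061), a zinc finger transcription factor, measured 3.21, 2.55 and 2.14 CPM in the female libraries and 10.7, 11.3 and 8.50 CPM in the male libraries (log2 -1.94, SE 0.204, adjusted p 2.89e-05). Every male library of both genes stood above every female one, as the choice of genes required. Smoc1, a secreted matrix-associated protein, had a female mean of 2.79 ± 0.683 CPM and a male mean of 14.4 ± 2.98 CPM. The organic cation transporter Slc22a3 stood at 5.18 ± 0.973 against 21.6 ± 0.615 CPM, the tight junction gene Cldn1 at 16.7 ± 1.40 against 59.0 ± 7.45 CPM and the secreted protein gene Wfdc1 at 6.51 ± 0.208 against 25.4 ± 1.49 CPM. Their log2 fold changes were -2.37, -2.06, -1.82 and -1.97, with adjusted p of 4.56e-05, 1.07e-06, 1.07e-05 and 4.91e-07. Fam65b had a log2 fold change of -1.94 (adjusted p 9.31e-07). The remaining 5 of the 12 were 3 smooth muscle genes and the growth factors Bmp2 and Fgf10, described with their pathways.

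**Figure D2:**
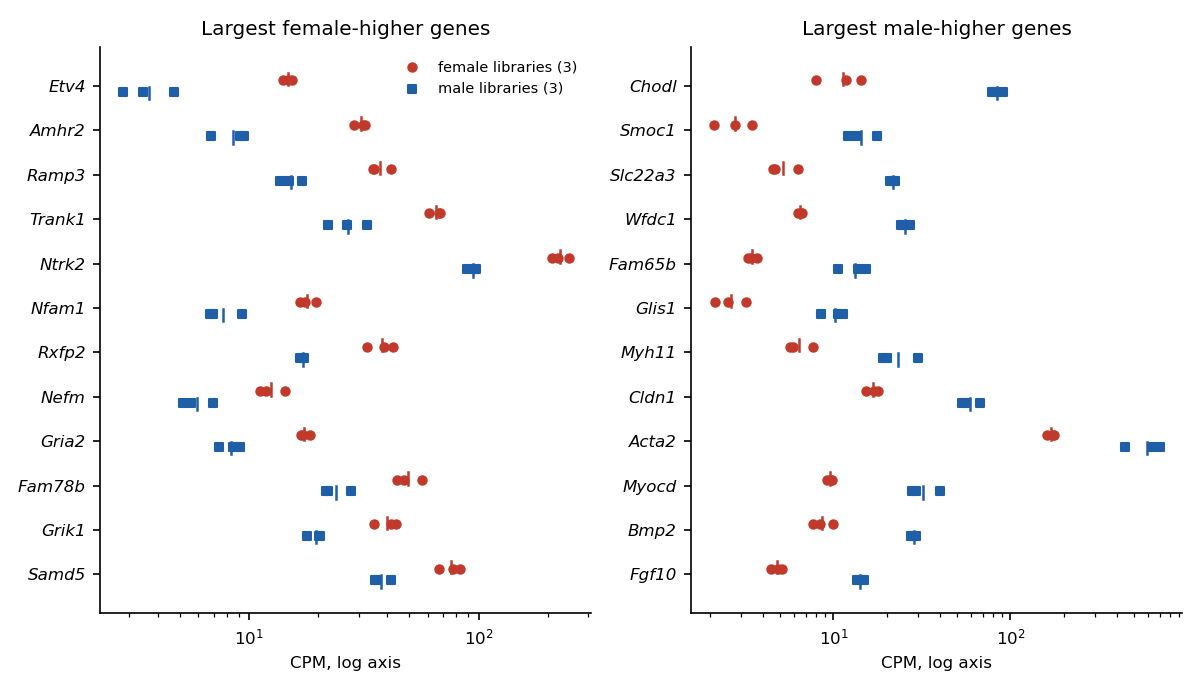
CPM on a log axis of the 12 largest female-higher (left) and male-higher (right) autosomal genes, each at least 10 CPM in the higher sex. Red circles are the 3 female and blue squares the 3 male libraries, and short vertical lines are group means. Groups without overlap were a condition for choosing these genes.

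The start sites of several of these genes lie in accessible chromatin. The ATAC-seq peaks were deposited as 1 list for all samples without heights, so they show where chromatin was open in this series and not in which sex. Among genes with a RefSeq promoter (250 bases before to 50 after the start, GRCm38.p6), the promoter overlapped a peak in 85.0% of female-higher genes (266 of 313), 82.4% of male-higher genes (357 of 433) and 85.1% of all tested genes. Of the 12 largest in each direction, Amhr2, Rxfp2, Slc22a3 and Fgf10 had a RefSeq promoter without a peak. The rest had a peak or no promoter entry. The promoters of the largest female-higher and male-higher genes that had both a promoter entry and a peak are printed 5′ to 3′, because their base composition ranges from CpG-poor to CpG-dense and of the 4 Chodl alone holds TATA letters. Capitals mark the letters TATATAA, bases 222 to 228 of the Chodl window.
Ramp3, chr11:6658283-6658582, plus strand: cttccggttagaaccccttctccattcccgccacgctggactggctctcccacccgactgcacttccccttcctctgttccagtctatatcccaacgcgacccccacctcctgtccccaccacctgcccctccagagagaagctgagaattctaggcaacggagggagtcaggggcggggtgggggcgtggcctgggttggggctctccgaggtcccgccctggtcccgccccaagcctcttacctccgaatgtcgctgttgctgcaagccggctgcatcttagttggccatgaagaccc
Trank1, chr9:111311489-111311788, plus strand: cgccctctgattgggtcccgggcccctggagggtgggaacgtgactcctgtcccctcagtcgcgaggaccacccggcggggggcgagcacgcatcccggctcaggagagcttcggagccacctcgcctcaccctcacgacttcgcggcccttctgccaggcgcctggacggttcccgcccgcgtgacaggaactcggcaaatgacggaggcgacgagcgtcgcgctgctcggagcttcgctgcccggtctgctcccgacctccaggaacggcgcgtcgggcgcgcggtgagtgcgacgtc
Chodl, chr16:78930698-78930997, plus strand: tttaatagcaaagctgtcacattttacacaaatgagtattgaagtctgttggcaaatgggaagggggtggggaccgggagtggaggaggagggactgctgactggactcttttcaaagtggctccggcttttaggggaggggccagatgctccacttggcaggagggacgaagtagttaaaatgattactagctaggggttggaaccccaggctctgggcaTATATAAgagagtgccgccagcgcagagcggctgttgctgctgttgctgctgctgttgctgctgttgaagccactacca
Glis1, chr4:107434469-107434768, plus strand: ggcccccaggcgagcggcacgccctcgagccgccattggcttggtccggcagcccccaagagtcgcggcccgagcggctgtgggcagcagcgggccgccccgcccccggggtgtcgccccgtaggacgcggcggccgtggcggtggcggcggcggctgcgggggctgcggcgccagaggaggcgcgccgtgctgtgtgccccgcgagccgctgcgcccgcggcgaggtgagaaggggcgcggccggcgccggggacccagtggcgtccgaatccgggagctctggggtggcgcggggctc
Their GC content was 63.7% in Ramp3, 71.7% in Trank1, 52.7% in Chodl and 81.3% in Glis1, with 15, 40, 6 and 47 CpG dinucleotides in 300 bases. TATAAA or TATATAA on either strand occurred in the promoters of 9.7% of all tested genes with an entry. The Gli motif letters GACCACCCA, searched on both strands, were found in none of these 4 windows and in 0.255% of all genes' promoters.

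Genes of Müllerian duct regression were called in both directions. Of 15 tested genes on this list, 6 were higher in females and 2 in males, against 2.58% and 3.64% of all tested genes, and the list's median log2 fold change was 0.32. These shares of all tested genes, and an overall median of -0.01, are the background of the counts and medians of every list at E14.5. Besides Amhr2, the female-higher members were the matrix protease Mmp2 (921 ± 19.1 against 737 ± 14.3 CPM), the secreted Wnt modulator Sfrp2 (62.8 ± 4.68 against 44.0 ± 2.92 CPM), the transcription factors Runx1 (14.53 ± 0.736 against 8.29 ± 1.60 CPM) and Lef1, and the ligand Wnt4. Mmp2, Sfrp2 and Runx1 had log2 fold changes of 0.32, 0.51 and 0.82 and stayed called with any library left out. The Lef1 call (log2 0.44, SE 0.115, adjusted p 0.0313) ended without female replicate 1, 2 or 3, or male replicate 1 or 3 (adjusted p 0.0596 to 0.176). Wnt4, which is needed for the Müllerian duct to form, measured 195, 250.1 and 249 CPM in the female libraries and 173, 159 and 168 CPM in the male libraries (log2 0.47, SE 0.105, adjusted p 0.014). Its call ended without female replicate 2 or 3, or male replicate 2 or 3 (adjusted p 0.0588 to 0.0738).

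The male-higher members were Wif1 and Msx2. Wif1, a secreted Wnt inhibitor, measured 0.434, 0.239 and 0.434 CPM in the female libraries and 2.36, 2.18 and 1.68 CPM in the male libraries (log2 -2.45, SE 0.371, adjusted p 0.00079). Msx2, a homeobox transcription factor and target of BMP signalling, measured 0.234, 0.279 and 0.688 CPM in the female libraries and 4.29, 6.36 and 4.33 CPM in the male libraries (log2 -3.64, SE 0.352, adjusted p 1.55e-05). The lowest male library of each gene held more than 3 times the highest female library. At E16.5 neither differed by the test: Wif1 stood at 0.215 ± 0.0982 against 0.300 ± 0.181 CPM and Msx2 at 0.404 ± 0.0453 against 0.432 ± 0.209 CPM. The change of the difference with age passed the test for both, by 2.02 (adjusted p 0.0475) and 3.52 (adjusted p 0.000534) on the log2 scale. For Msx2 it passed with any of the 12 libraries left out. For Wif1 it passed without E16.5 female replicate 2 or E16.5 male replicate 1 and in none of the other 10 such fits (adjusted p up to 0.197).

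Among the receptors and Smads through which AMH and BMPs signal, Amhr2 was the member with the largest difference. Smad5, a signal transducer of this branch, measured 603, 583 and 574 CPM in the female libraries and 448, 352 and 351 CPM in the male libraries (log2 0.61, SE 0.0798, adjusted p 0.000205). Smad6, an inhibitor of the branch, measured 31.8, 32.1 and 33.7 CPM in the female libraries and 38.8, 59.3 and 41.5 CPM in the male libraries (log2 -0.52, SE 0.122, adjusted p 0.019), and its call ended without female replicate 1, 2 or 3 (adjusted p 0.0568 to 0.0844). The other 10 of 13 tested members were not called. The Amhr2 difference had grown from a log2 fold change of 1.87 to 2.88 at E16.5, when it stood at 13.3 ± 3.83 against 1.82 ± 0.503 CPM (interaction 1.01, adjusted p 0.0448). This growth no longer passed with a replicate block (adjusted p 0.0713) or in 8 of the 12 fits with 1 library left out (adjusted p up to 0.146); it passed without E14.5 male replicate 3, E16.5 female replicate 1 or 3 or E16.5 male replicate 1.

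Genes linked to androgen action in mesenchyme were called 5 times of 14 tested as higher in males and never as higher in females (3.64% and 2.58% of all tested genes), with a list median of -0.23. At an unadjusted p under 0.05, 1 was female-higher, and DESeq2 called 1 in that direction. Fgf10, a growth factor of mesenchyme that acts on epithelium, measured 4.44, 5.10 and 4.85 CPM in the female libraries and 13.6, 13.8 and 14.9 CPM in the male libraries, a 2.96-fold difference (log2 -1.56, SE 0.119, adjusted p 1.07e-06). Zbtb16, a transcription factor induced by steroid hormones, measured 0.0668, 0.0398 and 0.181 CPM in the female libraries and 1.09, 1.34 and 1.37 CPM in the male libraries. Female libraries were at or close to the limit of detection and male libraries well above it, so the size is imprecise (adjusted p 1.65e-05). The steroid-responsive genes Klf9 (10.5 ± 1.62 against 22.9 ± 4.54 CPM, adjusted p 0.0238) and Fkbp5 (63.6 ± 1.46 against 74.0 ± 4.67 CPM, adjusted p 0.0477) and the receptor Egfr (43.6 ± 0.956 against 53.9 ± 2.29 CPM, adjusted p 0.0186) were less firm. The Klf9 call ended without female replicate 1, 2 or 3, or male replicate 2 or 3 (adjusted p 0.0625 to 0.0997), the Fkbp5 call without female replicate 1, 2 or 3, or male replicate 2 or 3 (adjusted p 0.12 to 0.245) and the Egfr call without female replicate 1, 2 or 3, or male replicate 3 (adjusted p 0.0585 to 0.109). At E16.5 the Fkbp5 difference had grown to 44.8 ± 1.67 against 137 ± 3.83 CPM (interaction -1.39, adjusted p 9.6e-08). The androgen receptor gene lies on the X chromosome and is outside the genes described.

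Of 10 tested steroid receptor genes, Esr1 was called. Esr1, the oestrogen receptor alpha gene, measured 131, 128 and 129.9 CPM in the female libraries and 99.8, 104 and 100.4 CPM in the male libraries, a difference of 1.28-fold with narrow spread (log2 0.35, SE 0.0511, adjusted p 0.000534). Pgr, the progesterone receptor gene, measured 13.8, 14 and 15.1 CPM in the female libraries and 9.55, 15.4 and 16.6 CPM in the male libraries (adjusted p 0.957), and the female libraries lay inside the male range. At E16.5 it stood at 99.4 ± 0.510 against 24.5 ± 3.97 CPM, and the change of the difference with age passed the test (interaction 2.0, adjusted p 9.06e-05).

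The smooth muscle genes that were called were all higher in males. Of 17 tested, 9 (52.9%) were called male-higher, against 3.64% of all tested genes, and none was female-higher by edgeR, by DESeq2 or at an unadjusted p under 0.05. The median log2 fold change of the list was -0.58, and its summed level was 1935 to 1981 CPM in female and 2588 to 3088 CPM in male libraries. Acta2, smooth muscle actin (chromosome 19, 34241090 to 34255336), measured 177, 160.3 and 173 CPM in the female libraries and 444, 627 and 697 CPM in the male libraries, a 3.46-fold difference (log2 fold change -1.79, SE 0.242, adjusted p 0.0023). Myh11, the smooth muscle myosin heavy chain, measured 7.68, 5.69 and 5.90 CPM in the female libraries and 19.1, 20.1 and 30.2 CPM in the male libraries (log2 -1.85, SE 0.275, adjusted p 0.00386). Myocd, the coactivator that drives smooth muscle genes through serum response factor, measured 9.25, 9.79 and 9.67 CPM in the female libraries and 27.7, 29.1 and 40 CPM in the male libraries (log2 -1.76, SE 0.168, adjusted p 4.26e-05). In each of these 3 genes the male libraries spread more widely than the female ones, yet the lowest male library was more than 2 times the highest female one.

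Other contractile genes had smaller or less stable differences. Myl9, a regulatory light chain of myosin, measured 106, 99.9 and 99.0 CPM in the female libraries and 192, 207 and 236 CPM in the male libraries (log2 -1.06, SE 0.0977, adjusted p 9.94e-06). Tpm2, a tropomyosin, stood at 85.9 ± 1.76 against 123 ± 17.1 CPM and Pgm5 at 85.3 ± 5.10 against 124 ± 11.5 CPM, with log2 fold changes of -0.52 and -0.53. Cnn1 (log2 -1.94), Lmod1 (-1.33) and Smtn (-0.31) were called with all libraries in the fit but not in every fit with 1 library left out. The Cnn1 call ended without female replicate 1, 2 or 3, or male replicate 2 or 3 (adjusted p 0.0753 to 0.145), the Lmod1 call without female replicate 1, 2 or 3, or male replicate 2 or 3 (adjusted p 0.108 to 0.19) and the Smtn call without female replicate 1, 2 or 3, or male replicate 2 or 3 (adjusted p 0.12 to 0.236). Actg2 (1.3, 0.478 and 0.797 CPM in females, 2.23, 2.42 and 2.80 CPM in males) missed the threshold with an adjusted p of 0.0606, as did Tagln (4.88, 4.54 and 4.45 and 8.20, 6.76 and 5.93 CPM) with 0.13, although in neither did the sexes overlap. Both passed in the fit of the 6 E14.5 libraries alone (adjusted p 0.00542 and 0.0276) and with a replicate block (0.00195 and 0.0157), and Actg2 also by DESeq2 (0.00759) and with library-size scaling (0.0390). At E16.5, when 14% of all tested genes were male-higher, 14 of the 17 were higher in males, and Myh11 had reached 315 ± 88.7 CPM in males against 15.5 ± 1.76 in females (interaction -2.49, adjusted p 0.00223). Perivascular markers, which mark another contractile cell population, summed to 533.9 to 543.1 CPM in female and 484.8 to 514.5 CPM in male libraries, and none of 6 tested was called by edgeR or DESeq2 (1 had an unadjusted p under 0.05). Notch3 made most of these sums, at 367.6 to 373.6 CPM in females and 310.8 to 342.7 CPM in males. Cspg4 lay the other way, at 62.3 to 65.3 against 68.4 to 72.0 CPM, so the sums do not give a direction for the list as a whole.

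Smooth muscle genes are known for CArG boxes, the sites of serum response factor. CArG-like letters (CCNNNNNNGG with at least 5 of the 6 middle bases A or T, both strands) were searched in the 300-base promoters. They were found in 3 of the 13 smooth muscle genes with a RefSeq entry, 2 of 7 called and 1 of 6 not called, and in 10.4% of all tested genes with an entry. The called genes that hold them are Acta2 and Myl9, each with 2 boxes, shown in capitals. These promoters were chosen after their letters were seen.
Acta2, chr19:34255324-34255623, minus strand: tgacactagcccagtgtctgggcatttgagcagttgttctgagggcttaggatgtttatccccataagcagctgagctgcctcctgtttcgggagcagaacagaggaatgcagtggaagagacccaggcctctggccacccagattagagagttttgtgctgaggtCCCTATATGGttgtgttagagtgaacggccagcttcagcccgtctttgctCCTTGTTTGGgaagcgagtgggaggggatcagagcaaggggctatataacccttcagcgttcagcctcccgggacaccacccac
Myl9, chr2:156775214-156775513, plus strand: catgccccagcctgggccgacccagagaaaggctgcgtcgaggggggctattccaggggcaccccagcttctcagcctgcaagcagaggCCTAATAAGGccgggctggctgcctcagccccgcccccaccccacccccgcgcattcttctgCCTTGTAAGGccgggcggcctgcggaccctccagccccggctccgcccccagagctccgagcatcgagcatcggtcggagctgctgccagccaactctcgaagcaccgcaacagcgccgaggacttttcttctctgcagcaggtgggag
The Acta2 boxes begin 84 and 34 bases before the start, and those of Myl9 begin 161 and 99 bases before it. Both promoters overlap an ATAC-seq peak. A match is a string of letters, and binding was not measured.

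The hedgehog pathway genes that were called were higher in males, by small factors. Of 15 tested, 4 were higher in males and none in females by edgeR or DESeq2 (1 at an unadjusted p under 0.05), against 3.64% and 2.58% of all tested genes, and the list's median was -0.08. Gli1, the gene whose driver labels the cells, measured 184, 184 and 184 CPM in the female libraries and 213, 246 and 224 CPM in the male libraries, a 1.24-fold difference (log2 -0.31, SE 0.0683, adjusted p 0.0125). Transcript of the labelling gene was thus a little higher in males, a call that ended without female replicate 1, 2 or 3, or male replicate 2 (adjusted p 0.0538 to 0.0689). Hhip, a hedgehog-binding inhibitor that the pathway induces, measured 42.4, 33.8 and 35.2 CPM in the female libraries and 64.5, 60.5 and 62.5 CPM in the male libraries (log2 -0.75, SE 0.147, adjusted p 0.0083). The co-receptor Gas1 had a log2 fold change of -0.29 (adjusted p 0.028), and its call ended without female replicate 1 or 2, or male replicate 2 or 3 (adjusted p 0.0821 to 0.157). Ptch1, the main hedgehog receptor and a target of the pathway, measured 667, 624 and 558 CPM in the female libraries and 939, 797 and 828 CPM in the male libraries without overlap, but its adjusted p was 0.277. It passed in the fit of the 6 E14.5 libraries alone (adjusted p 0.00427) and under no other alternative. At E16.5 the female levels were 2.17 ± 0.455 CPM for Hhip and 76.6 ± 10.7 CPM for Ptch1, while male levels were 86.3 ± 18.7 and 671 ± 219 CPM. The interaction passed the test for both, at -4.56 and -2.66 on the log2 scale (adjusted p 1.05e-07 and 0.00042). The male excess of these genes was thus larger at the later age.

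Wnt pathway genes were called in both directions. Of 21 tested antagonists and targets, 7 were higher in females and 2 in males, against 2.58% and 3.64% of all tested genes (list median 0.19). Tcf7, a transcription factor of the pathway, measured 67.4, 66.3 and 61.9 CPM in the female libraries and 37.9, 42.0 and 38.8 CPM in the male libraries (log2 0.72, SE 0.0804, adjusted p 4.98e-05). Notum, a secreted enzyme that inactivates Wnt ligands, measured 34.9, 35.3 and 37.1 CPM in the female libraries and 18.6, 23.2 and 19.7 CPM in the male libraries (log2 0.80, SE 0.122, adjusted p 0.000881). Frzb, a secreted Wnt-binding protein, measured 12.6, 10.7 and 13.0 CPM in the female libraries and 6.94, 5.07 and 6.17 CPM in the male libraries (log2 1.01, SE 0.172, adjusted p 0.00233). Female and male libraries were well apart for these 3, and Apcdd1, Dkk3 and Sfrp2 were higher in females with log2 fold changes of 0.44, 0.35 and 0.51. The target Axin2 was not called (117 ± 12.498 against 102 ± 9.19 CPM, adjusted p 0.358). On the male side stood Wif1 and the inhibitor Dkk1, whose male level was 0.667 ± 0.262 CPM and whose call ended without female replicate 1, 2 or 3, or male replicate 2 (adjusted p 0.0706 to 0.122). Tcf7 and Notum, like Wif1, were not called at E16.5, with interactions of -0.86 and -1.08 (adjusted p 0.000145 and 0.000887). With a replicate block Notum was called at E16.5 (adjusted p 0.0476).

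Wnt ligands, R-spondins and receptors numbered 26 tested, with 4 higher in females and 6 in males (list median 0.06). Male-higher ligands that stayed called with any library left out were Wnt9a (16.4 ± 0.997 against 30.7 ± 1.31 CPM, log2 -0.91), Wnt6 (21.4 ± 0.578 against 31.1 ± 4.71 CPM, -0.54) and Wnt2b (18.0 ± 0.116 against 25.4 ± 1.51 CPM, -0.50). The R-spondin Rspo3, which amplifies Wnt signals, stood at 45.0 ± 2.09 against 64.3 ± 3.03 CPM (-0.51). Rspo1 was male-higher at E14.5, at 26.0 ± 1.32 against 35.6 ± 0.961 CPM (adjusted p 0.0175), and female-higher at E16.5, at 80.8 ± 7.01 against 45.3 ± 7.79 CPM, with an interaction of 1.29 (adjusted p 3.81e-05). Its E14.5 call ended without female replicate 1 or 3, or male replicate 2 or 3 (adjusted p 0.0669 to 0.0886). The 4 female-higher members, Wnt4, Wnt11, Ror1 and Lrp5, each lost the call in some fit with 1 library left out: Wnt11 (log2 0.56) without female replicate 1, or male replicate 3 (adjusted p 0.061 to 0.0748), Ror1 (0.35) without female replicate 3, or male replicate 2 or 3 (adjusted p 0.0655 to 0.0755) and Lrp5 (0.22) without female replicate 1, 2 or 3, or male replicate 2 or 3 (adjusted p 0.0704 to 0.107). The receptor Fzd4, male-higher at -0.36, lost it without female replicate 1 or 2, or male replicate 1 or 3 (adjusted p 0.11 to 0.236).

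In the FGF and ERK list, called ligands were higher in males and called response genes in females. Of 26 tested, 4 were higher in females and 3 in males (list median 0.06). Etv5, like Etv4 an ETS factor that FGF signalling induces, measured 27.5, 26.7 and 24.4 CPM in the female libraries and 13.1, 13.9 and 13.4 CPM in the male libraries (log2 0.95, SE 0.0903, adjusted p 1.23e-05). Spred1, an inhibitor of ERK signalling, measured 220.3, 213 and 193 CPM in the female libraries and 194, 146 and 151 CPM in the male libraries (log2 0.35, SE 0.0970, adjusted p 0.0429), with male replicate 1 inside the female range. Its call ended without female replicate 1, 2 or 3, or male replicate 2 or 3 (adjusted p 0.0545 to 0.206). Fgf18 measured 1.3, 1.47 and 1.34 CPM in the female libraries and 3.11, 2.91 and 2.92 CPM in the male libraries (log2 -1.12, SE 0.215, adjusted p 0.00488), and Fgf10 was male-higher as given with the androgen-linked genes. The ligands were thus higher where Etv4 and Etv5 were lower. Spry4, another response gene, measured 36.9, 40.2 and 38.9 CPM in the female libraries and 19.7, 35.6 and 30.2 CPM in the male libraries and did not pass (adjusted p 0.15), although it did by DESeq2 (0.0459) and without male replicate 2 (0.0286). The small differences of Flrt2 (log2 0.24) and Fgfr2 (-0.33) were not stable. The Flrt2 call ended without female replicate 1, 2 or 3, or male replicate 2 or 3 (adjusted p 0.119 to 0.204) and the Fgfr2 call without female replicate 2 or 3, or male replicate 2 or 3 (adjusted p 0.0684 to 0.153). The table's Fgfr2 row spans a region that holds 59 other genes. At E16.5 Etv4 was still female-higher (6.43 ± 0.971 against 2.32 ± 0.337 CPM) and Etv5 was not called (14.52 ± 0.781 against 16.3 ± 1.70 CPM, interaction -1.12, adjusted p 3.42e-05).

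BMP and TGF-beta family genes were called mostly in the male direction, 6 of 33 tested against 1 in the female direction (list median -0.14). Bmp2 measured 7.65, 8.36 and 9.92 CPM in the female libraries and 29.5, 28.3 and 27.4 CPM in the male libraries, a 3.28-fold difference (log2 -1.71, SE 0.127, adjusted p 9.31e-07). Bmp4 measured 21.8, 22.9 and 24.0 CPM in the female libraries and 32.1, 37.3 and 45.6 CPM in the male libraries (log2 -0.75, SE 0.146, adjusted p 0.00737). Both ligands act on neighbouring epithelium and mesenchyme, and Msx1 and Msx2, known BMP targets, were male-higher too. Inhbb, an activin subunit, measured 1.67, 2.11 and 1.81 CPM in the female libraries and 3.66, 6.43 and 7.45 CPM in the male libraries (log2 -1.70, SE 0.272, adjusted p 0.00295), and the latent TGF-beta binding protein gene Ltbp2 measured 2.87, 2.83 and 3.04 CPM in the female libraries and 8.92, 8.64 and 8.93 CPM in the male libraries (log2 -1.60, SE 0.105, adjusted p 7.76e-07). Chrd, an extracellular BMP inhibitor, stood at 47.2 ± 2.66 against 66.0 ± 4.21 CPM (log2 -0.48). Inhibitor and ligands were thus higher in the same sex. Tgfb3 (log2 -0.29) lost its call without female replicate 1 or 2, or male replicate 2 or 3 (adjusted p 0.0536 to 0.113), and the female-higher Ltbp1 (0.27) without female replicate 1, 2 or 3, or male replicate 2 or 3 (adjusted p 0.0693 to 0.214). With age the Bmp2 difference narrowed to a log2 fold change of -0.71 (interaction adjusted p 0.00136) and that of Bmp4 widened to -2.47 (interaction adjusted p 0.000114).

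**Figure D3:**
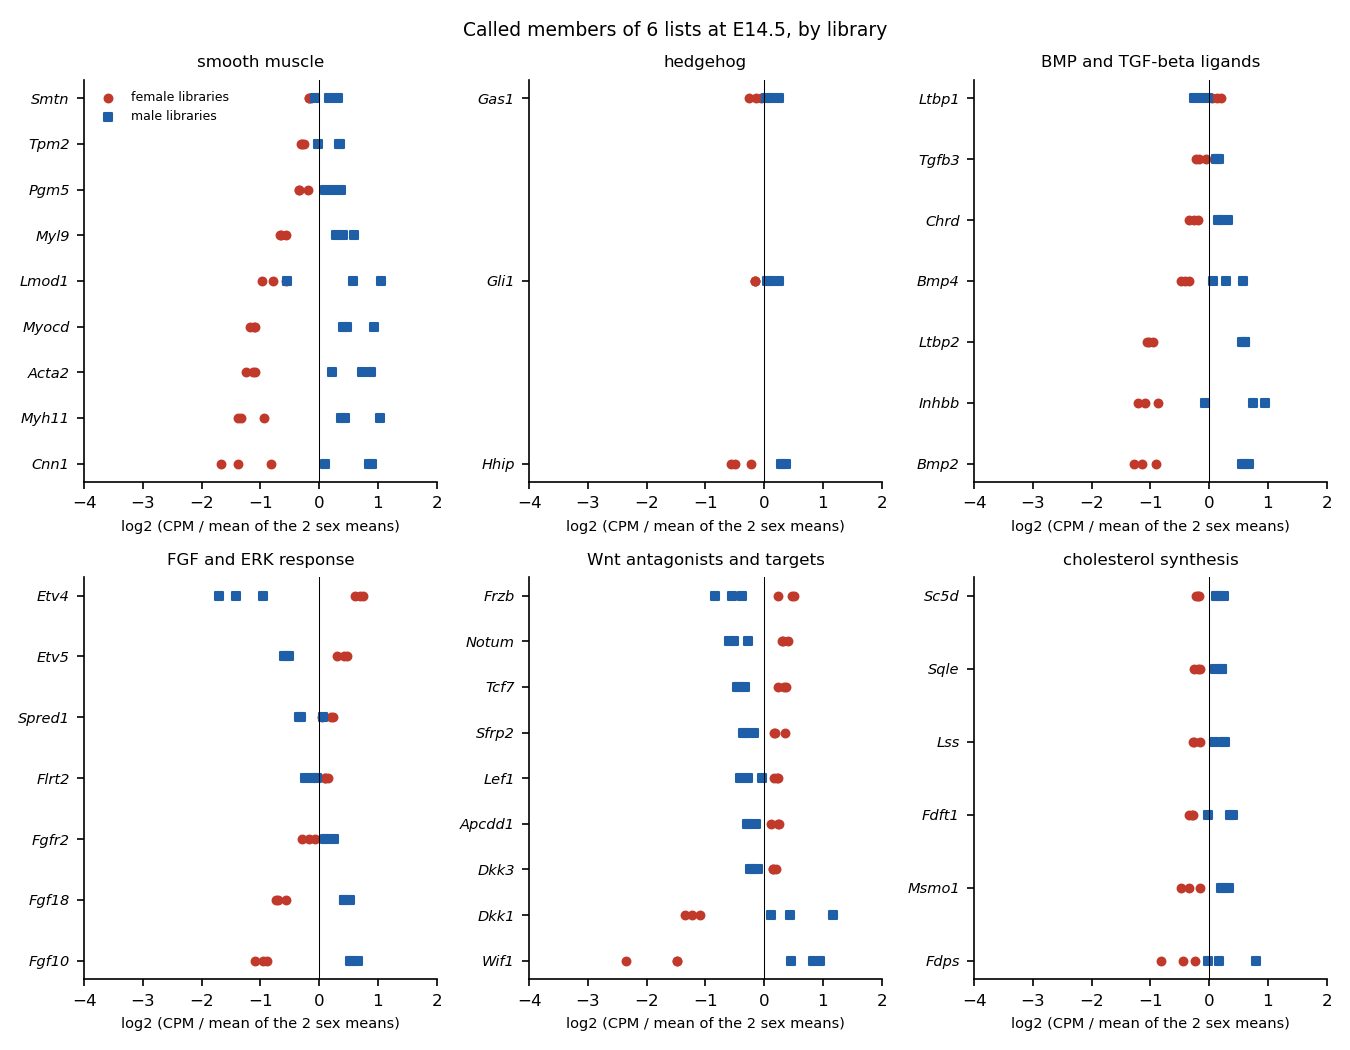
Called members of 6 gene lists in each E14.5 library, as the log2 ratio of its CPM to the mean of both sex means, with female libraries as red circles and male libraries as blue squares. The smooth muscle, hedgehog and cholesterol genes shown lie to the right in males, and the Wnt and FGF lists hold genes of both directions.

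Retinoid and insulin-like growth factor genes gave smaller groups. Of 16 tested retinoid genes, 3 were higher in males and none in females by edgeR or DESeq2 (list median -0.02, 1 female-higher at an unadjusted p under 0.05), and all 3 stayed called with any library left out. They were Aldh1a2, the enzyme that makes retinoic acid in mesenchyme (369, 334 and 360.0 CPM in the female libraries and 504, 541 and 578 CPM in the male libraries, log2 -0.61), the retinol uptake receptor Stra6 (171 ± 2.76 against 226 ± 7.09 CPM, -0.40) and the carrier Crabp2 (20.5 ± 1.38 against 30.5 ± 4.05 CPM, -0.58). At E16.5 Aldh1a2 and Stra6 were not called, and Crabp2 was female-higher (36.7 ± 2.19 against 29.7 ± 3.08 CPM). Of 14 insulin-like growth factor genes, the binding proteins Igfbp6 (7.72, 8.04 and 9.09 CPM in the female libraries and 20.5, 22.2 and 22.6 CPM in the male libraries, log2 -1.40) and Igfbp7 (27.9, 27.5 and 27.6 CPM in the female libraries and 40.3, 64.2 and 60.6 CPM in the male libraries, -1.0) were male-higher. Igfbp5, a further binding protein, at 4491 ± 141 against 3518 ± 205 CPM, was female-higher together with Igf2bp1, and both calls failed to hold. The Igfbp5 call ended without female replicate 1, 2 or 3, or male replicate 2 or 3 (adjusted p 0.0784 to 0.135) and the Igf2bp1 call without female replicate 1, 2 or 3, or male replicate 1, 2 or 3 (adjusted p 0.0687 to 0.176). None of 16 tested Notch genes was called by edgeR. At an unadjusted p under 0.05, 5 were higher in females and 2 in males, and DESeq2 called 2 and 1. The receptors Notch1 (97.3 ± 1.90 against 81.6 ± 2.57 CPM) and Notch2 (446 ± 8.73 against 373 ± 26.4 CPM) came close, with adjusted p of 0.0673 and 0.065.

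Hox genes and urogenital transcription factors were called in both directions. Of 35 tested Hox genes, 2 were higher in females (Hoxd9 and Hoxd10) and 3 in males (Hoxc5, Hoxc6 and Hoxc8), against 2.58% and 3.64% of all tested genes, with log2 fold changes between -0.50 and 0.49, and each of the 5 calls ended without female replicate 1 or 3, or male replicate 3, and some without other libraries (adjusted p 0.0502 to 0.211). Hoxa10 and Hoxa11, the genes that pattern uterus and cervix, measured 72.0, 66.7 and 83.1 CPM in the female libraries and 50.9, 65.1 and 56.6 CPM in the male libraries for Hoxa10 (adjusted p 0.0581) and 12.9, 12.3 and 16.3 CPM in female and 7.70, 12.4 and 10.8 CPM in male libraries for Hoxa11 (adjusted p 0.38). Hoxa10 passed by DESeq2 (0.0163), in the fit of the 6 E14.5 libraries alone (0.0400) and without male replicate 2 (0.0301). Of 36 tested urogenital transcription factors, 3 were called in each direction (list median -0.02). Sall1 measured 7.82, 9.60 and 10.6 CPM in the female libraries and 4.08, 5.75 and 3.72 CPM in the male libraries (log2 1.05, SE 0.235, adjusted p 0.0161), and its call ended without female replicate 2 or 3, or male replicate 3 (adjusted p 0.0606 to 0.0988). Prrx1 (0.28) ended without female replicate 1 or 2 (adjusted p 0.0505 to 0.0524). Msx1 stood at 1.12 ± 0.0981 against 2.12 ± 0.616 CPM, with its call ended without female replicate 1, 2 or 3, or male replicate 2 or 3 (adjusted p 0.0507 to 0.085). Gata4, also a marker of gonad cells, stood at 0.499 ± 0.202 against 1.63 ± 0.227 CPM, and its call ended without female replicate 1 (adjusted p 0.0617).

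Matrix genes were called in both directions. Of 39 tested glycoproteins and proteoglycans, 5 were higher in females and 9 in males (list median -0.24). Tnc, tenascin C, measured 14.1, 13.1 and 16.55 CPM in the female libraries and 46.8, 39.0 and 39.0 CPM in the male libraries (log2 -1.51, SE 0.111, adjusted p 9.31e-07), while its relative Tnxb, tenascin X, went the other way at 39.2, 45.4 and 42.6 CPM in the female libraries and 26.4, 20.7 and 22.3 CPM in the male libraries (log2 0.88, SE 0.10, adjusted p 5.76e-05). These relatives thus had opposite differences of similar clarity. Other male-higher members were Smoc1, Smoc2 (455 ± 28.6 against 703 ± 31.0 CPM), Ogn (29.0 ± 1.05 against 61.6 ± 8.88 CPM), Efemp1 (11.4 ± 1.70 against 21.9 ± 1.97 CPM), Aspn (3.45 ± 0.0953 against 7.18 ± 2.32 CPM) and Fbln2 (117 ± 2.23 against 151 ± 7.22 CPM). Female-higher members were elastin (Eln, 159.7 ± 8.79 against 127 ± 6.61 CPM) and Fbln1 (339 ± 15.4 against 250.4 ± 8.66 CPM). The calls of Emilin1, Gpc6, Dcn and Ctgf depended on single libraries. Emilin1 (log2 0.33) ended without female replicate 2 or 3, or male replicate 2 or 3 (adjusted p 0.0751 to 0.0889), Gpc6 (0.38) without female replicate 1, 2 or 3, or male replicate 2 or 3 (adjusted p 0.0855 to 0.187), Dcn (-0.24) without female replicate 1, 2 or 3, or male replicate 2 or 3 (adjusted p 0.072 to 0.215) and Ctgf (-0.90) without female replicate 1, 2 or 3, or male replicate 2 or 3 (adjusted p 0.066 to 0.0689).

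Among 26 tested collagens, the fibrillar collagens Col1a1 and Col3a1 were not called: Col1a1 stood at 13476 ± 612 against 12116 ± 1010.1 CPM (adjusted p 0.471) and Col3a1 at 13468 ± 372 against 12366 ± 1199 CPM (adjusted p 0.477). Higher in males were Col12a1 (884, 892 and 889.9 CPM in the female libraries and 1516, 1201 and 1313 CPM in the male libraries, log2 -0.60), Col18a1 (282 ± 4.74 against 455 ± 34.5 CPM, -0.69), Col23a1 (218 ± 14.4 against 393 ± 13.9 CPM, -0.85) and Col8a1 (18.1 ± 2.90 against 36.2 ± 4.70 CPM, -1.0). Each stayed called with any library left out. Col25a1 was higher in females at 81.3 ± 8.29 against 59.7 ± 1.27 CPM, a call that ended without female replicate 1 (adjusted p 0.0521), and higher in males at E16.5 (32.9 ± 0.292 against 85.4 ± 11.2 CPM). Of 35 tested matrix proteases and inhibitors, 3 were female-higher and 5 male-higher. The metalloprotease Adamts16 measured 23.4, 25.8 and 22.8 CPM in the female libraries and 40.9, 61.6 and 66.9 CPM in the male libraries (log2 -1.24, SE 0.157, adjusted p 0.000534), and the collagen cross-linking enzyme Lox measured 80.9, 83.8 and 94.6 CPM in the female libraries and 143, 112 and 137 CPM in the male libraries (log2 -0.59, SE 0.0929, adjusted p 0.00105). Male replicate 1 was the lowest male library of Adamts16 and the highest of Lox. Mmp9 (-1.39) and Mmp15 (-0.40) were male-higher and Mmp2 and Adamts20 (0.53) female-higher. Adam12 (-0.54) lost its call without female replicate 1, or male replicate 3 (adjusted p 0.0698 to 0.083), and Adamts12 (0.49) without female replicate 1, or male replicate 2 or 3 (adjusted p 0.0508 to 0.0546).

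Guidance and cytokine genes gave 9 and 6 calls. Of 42 tested axon guidance genes, which also act in mesenchyme and vessels, 6 were higher in females and 3 in males. Sema6d (166 ± 4.99 against 125 ± 10.5 CPM, log2 0.41) and the ephrin Efnb2 (129 ± 11.2 against 99.0 ± 1.25 CPM, 0.38) stayed called with any library left out. Slit2 measured 537, 557 and 593 CPM in the female libraries and 490.1, 385 and 407 CPM in the male libraries (log2 0.40, SE 0.0870, adjusted p 0.0117), a call that ended without female replicate 3, or male replicate 2 or 3 (adjusted p 0.0633 to 0.0716). Of 21 tested chemokine and cytokine genes, 4 were male-higher and 2 female-higher. The alarmin Il33 measured 24.2, 28.1 and 28.0 CPM in the female libraries and 49.5, 41.4 and 47.8 CPM in the male libraries (log2 -0.79, SE 0.109, adjusted p 0.000375), and the scavenging receptor of CXCL12, Ackr3, measured 11.1, 12.2 and 13.6 CPM in the female libraries and 19.6, 22.7 and 27.9 CPM in the male libraries (log2 -0.93, SE 0.126, adjusted p 0.000299). The oncostatin M receptor Osmr stood at 2.82 ± 0.450 against 7.38 ± 0.119 CPM (log2 -1.38). On the female side Tnfrsf19 stood at 114 ± 4.0 against 82.3 ± 8.44 CPM (0.47).

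Proliferation genes are read against the 6.22% of all tested genes called at this age. None of 24 tested mitosis genes was called by edgeR or DESeq2, and 1 had an unadjusted p under 0.05 (list median 0.03). Of 28 DNA replication genes edgeR called Mcm3 (log2 0.22, female-higher), a call that ended without female replicate 1, 2 or 3, or male replicate 1, 2 or 3 (adjusted p 0.0571 to 0.172). In that list 6 genes were female-higher at an unadjusted p under 0.05, and DESeq2 called 2. At E16.5, when 14% of all tested genes were male-higher, 20 genes of each list were higher in males. The summed mitosis list was 2863 to 3311 CPM in female and 2824 to 3077 CPM in male libraries. Ccnd2, a cyclin D, measured 801, 798 and 772 CPM in the female libraries and 645, 600.4 and 654 CPM in the male libraries (adjusted p 0.0306), and its call ended without female replicate 1, 2 or 3, or male replicate 2 or 3 (adjusted p 0.0762 to 0.127). Cdkn1c, an inhibitor of cyclin-dependent kinases, measured 244, 254 and 264 CPM in the female libraries and 325, 344 and 327 CPM in the male libraries (log2 -0.38, SE 0.0639, adjusted p 0.00172). Both reversed by E16.5, when Ccnd2 stood at 423 ± 13.52 against 598 ± 81.8 CPM and Cdkn1c at 418 ± 8.85 against 347 ± 26.8 CPM, with interactions of -0.82 and 0.65 (adjusted p 0.000273 and 0.000201).

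The genes of cholesterol synthesis that were called were higher in males. Of 19 tested, 7 were higher in males and none in females by edgeR, by DESeq2 or at an unadjusted p under 0.05, against 3.64% and 2.58% of all tested genes, with a list median of -0.37. Msmo1, which removes methyl groups from sterols, measured 51.5, 45.2 and 40.8 CPM in the female libraries and 67.2, 72.5 and 65.9 CPM in the male libraries (log2 -0.58, SE 0.112, adjusted p 0.00528). Fdft1, squalene synthase, measured 33.9, 34.3 and 32.8 CPM in the female libraries and 41.1, 53.0 and 54.8 CPM in the male libraries (log2 -0.56, SE 0.10, adjusted p 0.00296). Both stayed called with any library left out. Sqle, squalene epoxidase (-0.38), lost its call without female replicate 3 (adjusted p 0.0509), Sc5d (-0.37) without male replicate 2 (adjusted p 0.0525), Lss (-0.43) without female replicate 1 or 3, or male replicate 2 or 3 (adjusted p 0.0625 to 0.0886) and Fdps (-0.86) without female replicate 1, 2 or 3, or male replicate 2 or 3 (adjusted p 0.0503 to 0.188). At E16.5, 15 of the 19 were male-higher, against 14% of all tested genes.

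Glycolysis and hypoxia genes were called male-higher in 5 and female-higher in 1 of 24 tested (list median -0.26). Aldoa, a glycolytic enzyme, measured 116, 118 and 129 CPM in the female libraries and 148, 178 and 174 CPM in the male libraries (log2 -0.46, SE 0.0720, adjusted p 0.00102). P4ha2, a collagen prolyl hydroxylase, and Higd1a had log2 fold changes of -0.44 and -0.47, and Tpi1 and P4ha1 lost their calls, Tpi1 without female replicate 1 or 2, or male replicate 3 (adjusted p 0.0818 to 0.111) and P4ha1 without female replicate 1, 2 or 3, or male replicate 2 or 3 (adjusted p 0.0666 to 0.173). Vegfa, the angiogenic factor, went the other way at 300.1, 313 and 312 CPM in the female libraries and 198, 246 and 219 CPM in the male libraries (log2 0.48, SE 0.0860, adjusted p 0.00309). The immediate-early and stress list, a sign of handling, summed to 11722 to 12916 CPM in female and 12500 to 17366 CPM in male libraries with a median of -0.38. Of its 29 tested genes Hspb1 alone was called (log2 -1.51), and that call ended without female replicate 1, 2 or 3, or male replicate 2 or 3 (adjusted p 0.117 to 0.175). The part of handling in the male-higher results was not tested.

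**Figure D4:**
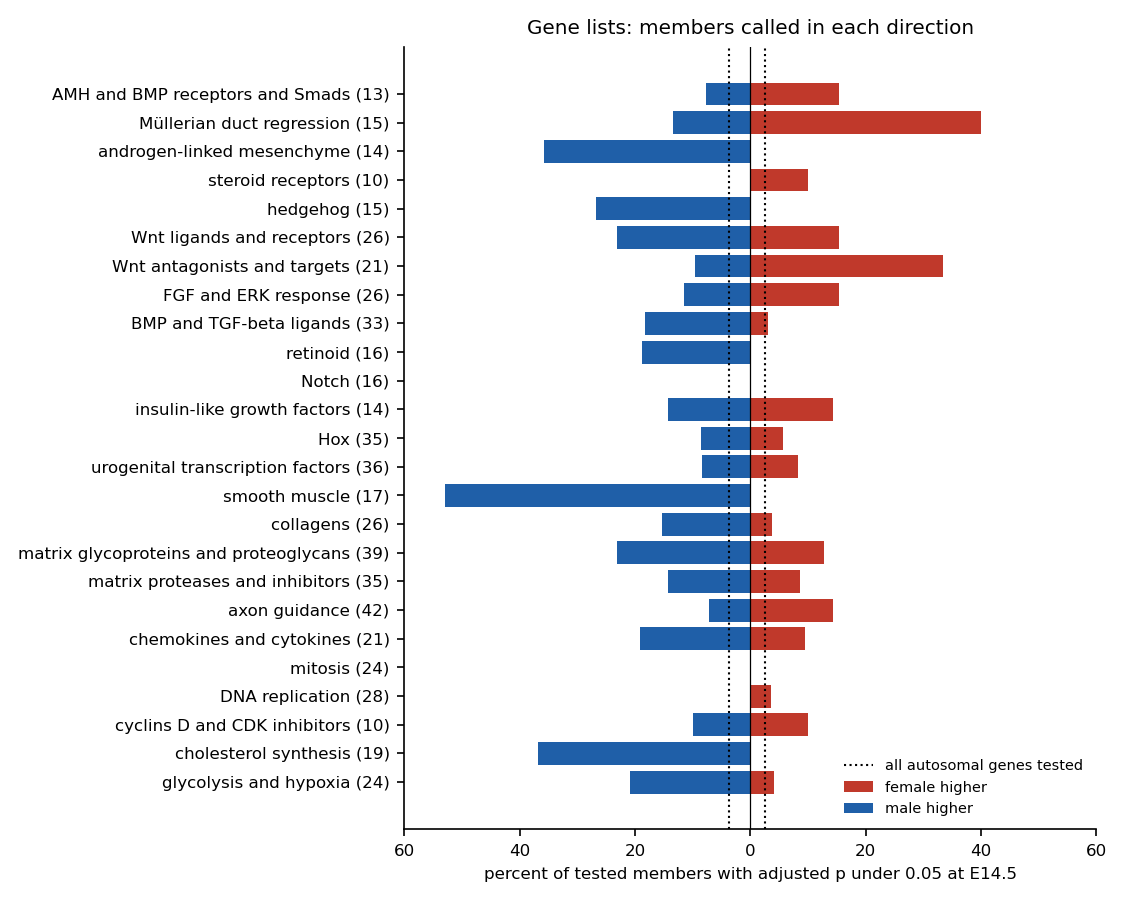
Percent of the tested members (number in parentheses) of each gene list that were higher in males (blue, left) or in females (red, right) at E14.5 by edgeR at an adjusted p under 0.05. Dotted lines mark the 3.64% and 2.58% of all autosomal genes tested, and smooth muscle (9 of 17) has the longest bar.

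Markers of other cell types summed to less than the mesenchyme markers, and some moved with sex. Duct epithelium markers summed to 41.7 to 46.6 CPM in female and 57.4 to 68.7 CPM in male libraries, with Krt18 (15.6 ± 1.03 against 24.7 ± 1.85 CPM) and Gata3 called male-higher among 18 tested. Krt18 and Krt19 (6.18 to 8.60 against 11.4 to 13.4 CPM) made most of that excess, and the list's median log2 fold change was 0.11, toward females. Gonad somatic markers summed to 48.9 to 51.2 against 55.7 to 62.9 CPM, with Foxl2 (19.8 ± 0.486 against 26.7 ± 5.61 CPM) and Gata4 called male-higher among 9 tested. Amh, in the same list, lay the other way (2.87 to 3.40 CPM in females, 1.89 to 2.58 CPM in males). The Foxl2 call ended without female replicate 1, 2 or 3, or male replicate 2 or 3 (adjusted p 0.114 to 0.218). Germ cell markers summed to 5.21 to 6.08 against 6.38 to 7.09 CPM, with Ddx4 (0.549 ± 0.138 against 1.82 ± 0.543 CPM) called and 2 of the 10 genes at 0. Ddx4 made most of that difference, and Dnd1 measured 3.62 to 4.14 against 3.03 to 3.82 CPM. Each of these 3 sums was higher in every male library than in any female library. Immune markers (66.8 to 70.7 against 44.7 to 61.9 CPM) lay the other way, with 1 of 11 tested genes, Tyrobp, called by edgeR and 6 by DESeq2. Cd68 made most of these sums and overlapped between the sexes (51.0 to 65.9 against 41.1 to 56.6 CPM). The immune list's median log2 fold change was 1.46. The Tyrobp call ended without female replicate 2 or 3, or male replicate 1 or 3 (adjusted p 0.0552 to 0.215). Endothelial markers summed to 120.0 to 133.3 against 107.7 to 121.6 CPM, with Tie1 and Emcn called among 9 tested and higher in females. Kdr, in the same list, lay the other way (41.9 to 47.0 CPM in females, 51.1 to 61.9 CPM in males). At an unadjusted p under 0.05 by edgeR, 4 endothelial genes were female-higher and 1 male-higher. The Tie1 call ended without female replicate 3, or male replicate 3 (adjusted p 0.0511 to 0.0604) and the Emcn call without female replicate 1 or 3, or male replicate 2 or 3 (adjusted p 0.0649 to 0.104). Mesothelial sums overlapped (334.1 to 390.7 against 348.1 to 394.6 CPM), with Wt1 at 217.6 to 242.4 against 189.6 to 207.4 CPM and Upk3b at 18.3 to 21.9 against 26.1 to 29.7 CPM; Krt19, also in this list, was higher in every male library. Their list median was -0.47, edgeR called none of 7 (1 at an unadjusted p under 0.05 in each direction), and DESeq2 called 1 in each direction. Metanephric progenitor markers summed to 15.2 to 19.4 CPM in female and 13.5 to 15.8 CPM in male libraries. Of 5 tested, 1 was called in each direction, and both calls ended in some fits with 1 library left out. The part of other cells in the sex differences was not tested.

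At E16.5, in libraries not used for the E14.5 contrast, most of the 1074 genes were called again. The same direction passed the test in 679 (63.2%), 290 of 445 female-higher and 389 of 629 male-higher genes, the opposite direction in 83 and neither in 312. At that age 27.2% of all tested autosomal genes were called, 13.3% higher in females and 14% in males. Both contrasts come from a single model, so they share its estimate of spread but no library. A change of the difference with age passed the test in 406 of the 1074 (9.94% of all tested genes did). With a replicate block, 619 of 1506 called genes had such a change. Of the 406 genes found without the block, the difference was larger at E16.5 in 194, smaller with the same sign in 40 and turned in sign in 172. A turn was read from the sign of the fitted E16.5 difference, whether or not that difference was called. The count called at both ages was 362 to 453 without any 1 of the E14.5 libraries other than male replicate 1, whose absence gave 804, and the count with a change was 195 to 247 in those fits and 624 without male replicate 1.

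Genes that were male-higher at E14.5 and turned included Slc26a7, an anion transporter, at 3.37, 1.27 and 2.5 CPM in the female libraries and 9.34, 5.63 and 6.96 CPM in the male libraries at E14.5 and 36.7 ± 7.11 against 5.01 ± 0.663 CPM at E16.5. Zfp804a and the cadherin gene Cdh10 did likewise, from 3.62 ± 0.397 against 5.91 ± 0.409 CPM and 4.6 ± 0.639 against 7.12 ± 0.305 CPM to 30.9 ± 3.42 against 6.84 ± 0.539 CPM and 26.8 ± 1.93 against 5.72 ± 0.463 CPM. The interaction of each passed with any of the 12 libraries left out, at 4.46, 2.88 and 2.86 on the log2 scale (adjusted p 1.91e-05, 4.28e-08 and 3.91e-08). Thy1, a surface marker of mesenchyme, turned from female-higher (92.7, 88.7 and 88.5 CPM in females, 63.8, 67.8 and 51.9 CPM in males) to male-higher at E16.5 (31.9 ± 3.95 against 62.8 ± 2.75 CPM). In Glis1, Nfam1 and Trank1 the E14.5 difference was gone from the calls at E16.5: Glis1 stood at 3.31 ± 0.260 against 4.0 ± 1.16 CPM, Nfam1 at 2.31 ± 0.185 against 2.34 ± 0.454 CPM and Trank1 at 37.0 ± 4.84 against 29.8 ± 1.32 CPM. Their interactions were 1.65, -1.24 and -0.95 on the log2 scale (adjusted p 0.00114, 0.00163 and 0.00189). With a replicate block Trank1 was called at E16.5 (adjusted p 0.0227). Chodl, Smoc1, Myocd and Ramp3 were called at both ages. At E16.5 their log2 fold changes were -3.06, -2.34, -1.73 and 1.22, and their interactions did not pass (adjusted p 0.689, 0.964, 0.953 and 0.861).

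**Figure D5:**
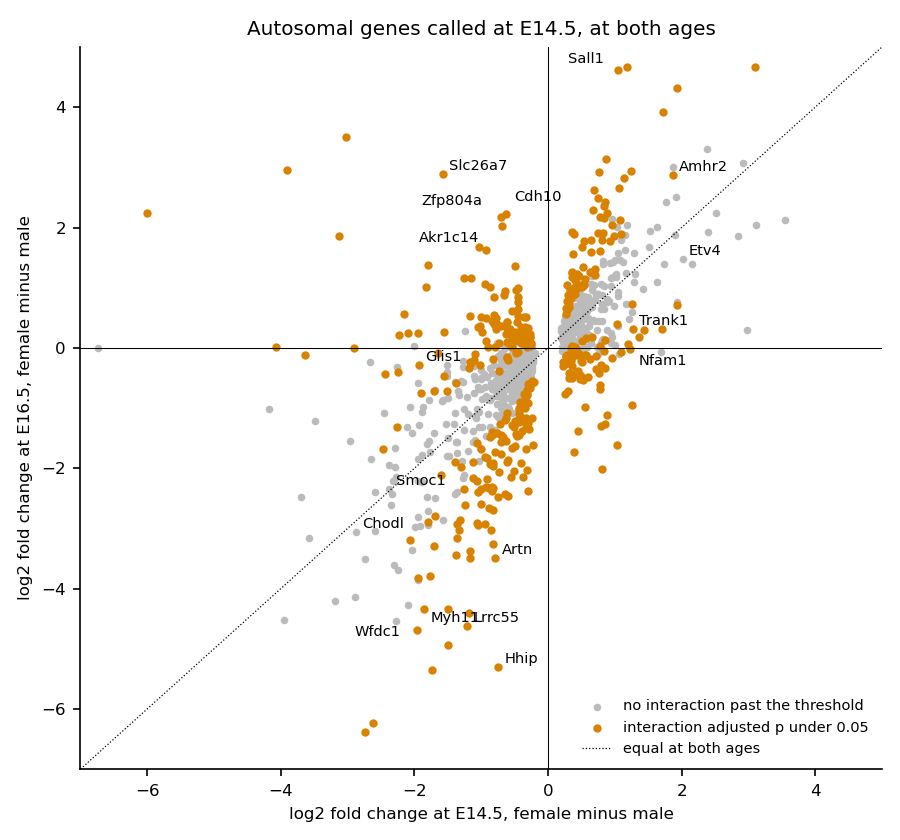
Log2 fold change at E16.5 against that at E14.5 (both female minus male) for the 1074 autosomal genes called at E14.5. Orange points are the 406 genes whose difference changed with age at an edgeR adjusted p under 0.05, and the dotted line marks equal differences.

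Some genes named above overlap another gene row of the table, and because the kit did not mark strand, their counts can include reads of the neighbour and are uncertain. They are Adam12, Adamts16, Aldoa, Aspn, Axin2, Bmp4, Ccnd2, Cdkn1c, Chrd, Col12a1, Col25a1, Col3a1, Ctgf, Dnd1, Efnb2, Egfr, Eln, Erbb3, Fam65b, Fdft1, Fdps, Fgf10, Fgfr2, Fkbp5, Flrt2, Foxl2, Gas1, Gata3, Gli1, Gpc6, Gria2, Hhip, Higd1a, Hoxa11, Hoxc5, Hoxd10, Igf2bp1, Igfbp7, Klf9, Lef1, Lmod1, Lss, Ltbp2, Nefm, Notch1, Notch2, Notum, Ntrk2, Ogn, Pdgfra, Prrx1, Ror1, Rspo1, Rspo3, Runx1, Rxfp2, Sema6d, Sfrp2, Slit2, Smad5, Smoc1, Smtn, Spry4, Tagln, Tcf7, Tgfb3, Tnc, Tnfrsf19, Tnxb, Tpi1, Tubb3, Wfdc1, Wnt2b and Wnt6.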

How the data were processed

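RNA-seq counts per gene were deposited by the authors as 1 table of whole-number counts, not normalized, and 12 of its columns, the fetal Gli1+ libraries, were used. Per the labels' protocols, embryos were dissociated, reporter-positive cells sorted, and libraries made with a TruSeq kit that does not mark strand. The submitters' processing notes name STAR 2.5, featureCounts and Subread 1.5.0-p1, without saying which step each served, and the build mm10; the annotation and strand setting of the counting are not given in the sources used here. ATAC-seq peaks (1 list for all samples) came from the authors' deposited file, used for positions alone; the processing notes also name Bowtie 1.2 and MACS2 2.1.1.

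Genes passing edgeR's filterByExpr (17858) were scaled by TMM and fitted with edgeR 4.0.16 (glmQLFit, robust, R 4.3.3) with a mean for each of the 4 sex and age groups. Contrasts were female minus male at E14.5, at E16.5, and their difference. P-values were adjusted over all tested genes (Benjamini-Hochberg, threshold 0.05). Levels are CPM, from TMM-scaled library sizes, and means carry SDs over 3 libraries. X- and Y-linked rows were left out of the gene results. In 1 simulated table of 17858 genes modelled on these libraries, the E14.5 contrast recovered 58.2% of 1.5-fold, 70.1% of 2-fold and 90.9% of 4-fold changes. It made 7 false calls. The genes changed there (67, 67 and 66) were fewer than those called in the data, so these shares need not hold for the real contrast. The genes named at length include the 12 largest called differences in each direction. Those were taken among genes of at least 10 CPM in the higher sex whose female and male libraries did not overlap. Also named are called members of the gene lists and the 5 largest interactions each way. Those interactions were taken among genes called at E14.5 with at least 10 CPM in the highest of the 4 groups. The uncalled genes named, and the promoters of Acta2 and Myl9, were chosen after their values were seen. The members, gene lists and rules were chosen with earlier results of these data known. Deviations of same-numbered female and male libraries correlated at 0.0519 to 0.0732 at E14.5, which was taken as sharing only a number, and at 0.288, 0.116 and 0.400 at E16.5, which was taken as pairing. For single genes, values with the replicate block are therefore given where they change a reported call at E16.5 or of the interaction. The E16.5 counts of list members and shares of all tested genes are without the block. With it, the male-higher members at E16.5 were 13 for smooth muscle, 21 for mitosis, 23 for DNA replication and 18 for cholesterol synthesis. Alternatives were DESeq2 1.42.0, library-size scaling, no filter, only the E14.5 libraries, a replicate block, a threshold of 0.01, and leaving out each library. Some members of the lists are counted but not reported singly here.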

Additional observations from a re-analysis of the deposited data

Results flagged for a closer look

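The size of the sex difference changed between E14.5 and E16.5 by an edgeR test of the interaction for 406 of the genes called at E14.5, adjusted p under 0.05. The largest changes given here are those among genes of at least 10 CPM in the highest of the 4 sex and age groups. They are the log2 fold change at E16.5 minus that at E14.5. Toward higher female levels they were 4.46 for Slc26a7, 3.58 for Sall1, 2.88 for Zfp804a, 2.86 for Cdh10 and 2.72 for Akr1c14. Toward higher male levels they were -4.56 for Hhip, -3.41 for Lrrc55, -2.72 for Wfdc1, -2.70 for Artn and -2.49 for Myh11. Each of these 10 interactions passed with any of the 12 libraries left out. Hhip, Lrrc55 and Wfdc1 overlap another gene row of the table, so their counts are uncertain.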

How the results depend on the processing

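The number of called autosomal genes, 1074, changed with single libraries: it ranged from 522 to 1598 when 1 E14.5 library was left out. Over the same fits and those without 1 E16.5 library, the genes called in the same direction at both ages (679) ranged from 362 to 815 and those whose difference changed with age (406) from 195 to 624. Called members of the gene lists (142) ranged from 88 to 156 when 1 E14.5 library was left out. At an adjusted p under 0.01, 491 genes were called. Other settings gave 1055 calls with library-size scaling (364 female-higher, 691 male-higher), 1044 with no filter on low counts, 1335 from the 6 E14.5 libraries alone (a fit with no E16.5 contrast) and 1373 with DESeq2. With a replicate block within age, 1506 genes were called, 619 of those changed with age and 918 were called in the same direction at both ages. Of the E16.5 calls and interactions given singly, the block changed those of Amhr2, Trank1 and Notum. The block ended the E14.5 calls of Ctgf (adjusted p 0.126), Hspb1 (0.0599) and Cx3cl1 (0.0501). Each E14.5 library correlated best with its own number. Among the uncalled genes named, Ptch1, Actg2, Tagln, Hoxa10 and Spry4 passed under at least 1 alternative. Of 164 called genes followed singly, 99 lost the call in no alternative fit that gave them an adjusted p, at the 0.05 threshold. The uncalled Pgr reversed sign, to log2 -0.014 without female replicate 3 and -0.16 without male replicate 1, with 0.18 without male replicate 3 as its highest value; the cause was not tested. Depth limited genes near 3 counts, such as Zbtb16 in females, where fold sizes are imprecise.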
